A study of Mus musculus with 6 samples.

Results

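The endothelin system of mouse cumulus cells, the somatic cells around the oocyte, was examined before and after an ovulatory dose of human chorionic gonadotropin (hCG). Its members were named as 7 genes: the ligands Edn1, Edn2 and Edn3, the receptors Ednra and Ednrb, and the converting enzymes Ece1 and Ece2. Genes were taken where a probe set of the array carried their symbol and no other, which gave 6 of 18194 measured genes, read by 14 of 34958 such probe sets. Ednra was not analysed here. Edn1 and Edn2 had 1 probe set each, Ece2 had 2, Ednrb and Ece1 had 3 and Edn3 had 4.

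The mice were wild-type females given 5 IU of eCG, equine chorionic gonadotropin, at an age of 21 days to make follicles grow. After 46 h of eCG they were left without hCG (hCG-0h, 3 samples) or spent 6 h under 5 IU of hCG (hCG-6h, 3 samples), with isolation labelled at an age of 23 days in both groups. Cumulus cells from 50 cumulus-oocyte complexes were pooled for each sample, and the medium for oocyte isolation held 5 µM milrinone, an inhibitor of phosphodiesterase 3, so both groups met eCG and milrinone. No group was kept for the same 6 h without hCG, so hCG and time cannot be told apart. For hCG-6h samples 2 and 3 the titles give 6 h but the descriptions 7 h and 8 h. Whether samples came from separate animals is not stated, so p-values measure the spread between these samples only, and the number of arrays limits precision.

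Endothelins are short peptides that act on vessels, smooth muscle and many other cells. Each is made as a long precursor that furin-type proteases cut to big endothelin, and endothelin-converting enzymes, which are membrane metalloproteases, then release the active peptide. The type A receptor (Ednra) prefers endothelins 1 and 2, whereas the type B receptor (Ednrb) binds all endothelins alike and also clears them. In the ovary, endothelin 2 is known as a peptide that granulosa cells make for a short time close to follicle rupture, under control of the progesterone receptor, and endothelin 1 is known to act on cumulus cells.

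The Ednrb receptor fell steeply, Ece1 fell by a smaller factor, and Edn1 fell near the limit of the test. Edn2, Edn3 and Ece2 did not pass. The interval of the Edn2 change was narrow, but its only probe set read near the array medians and may not stand above background. With each gene read by its brightest probe set (by mean over the 6 arrays), 3 of 6 measured members fell and 0 rose (limma, Benjamini-Hochberg adjusted p under 0.05 over 18194 genes; all adjusted p below are of this kind unless stated otherwise). At an unadjusted p under 0.05 the count that was higher was 1, Ece2. Across all genes 21.3% were called, 10.8% higher and 10.5% lower. The median log2 change of the 6 members was -0.44, beside 0.0067 over all genes. The 3 values of one group lay clear of the other group in 4 of the 6 members and in 37.9% of all genes.

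**Figure D1:**
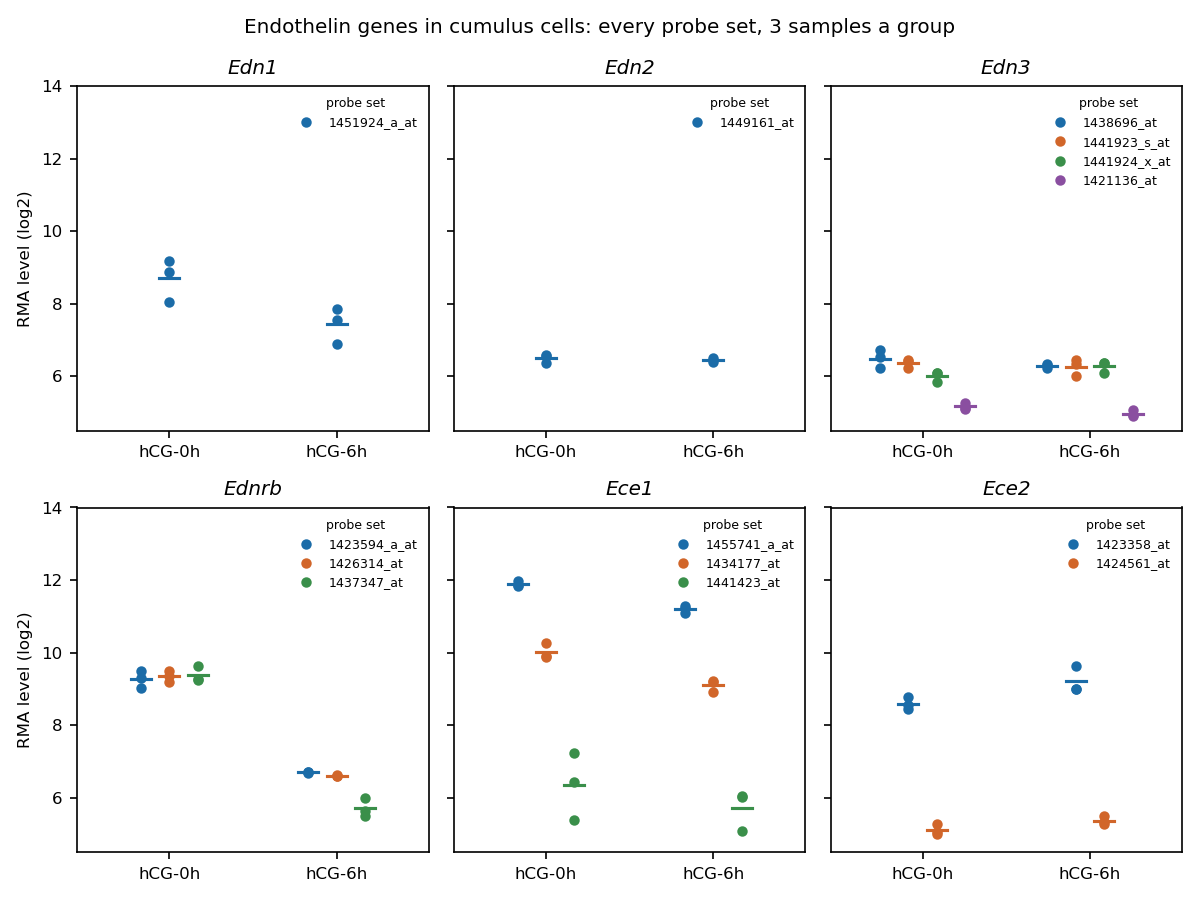
Log2 level of every endothelin probe set in each of 3 hCG-0h and 3 hCG-6h samples, 1 panel a gene; points are samples, short bars are group means and colours are probe sets of the same gene. All 3 Ednrb probe sets drop with wide gaps between groups, the upper 2 Ece1 sets drop less, Edn1 nearly touches between groups, and the Edn2 set overlaps; heights of different probe sets are not comparable.

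Promoter windows of all 7 genes were found in RefSeq (build GRCm38.p6), 10 in number with 4 for Ece1, each from 250 bases before to 50 after a start. Those of the receptor and the ligand that fell, and of Edn2, which was not called, are given 5′ to 3′ to show what lies at their starts, with capitals at the matches of 6 searched motifs.
Ednrb (chr14:103843652-103843951, minus strand): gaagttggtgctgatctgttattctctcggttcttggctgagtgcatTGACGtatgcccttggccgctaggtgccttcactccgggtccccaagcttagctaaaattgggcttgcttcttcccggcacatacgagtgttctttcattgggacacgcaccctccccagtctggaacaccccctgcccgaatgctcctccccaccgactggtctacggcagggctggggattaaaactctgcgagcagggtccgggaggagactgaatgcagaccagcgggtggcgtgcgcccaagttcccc
Edn1 (chr13:42301226-42301525, plus strand): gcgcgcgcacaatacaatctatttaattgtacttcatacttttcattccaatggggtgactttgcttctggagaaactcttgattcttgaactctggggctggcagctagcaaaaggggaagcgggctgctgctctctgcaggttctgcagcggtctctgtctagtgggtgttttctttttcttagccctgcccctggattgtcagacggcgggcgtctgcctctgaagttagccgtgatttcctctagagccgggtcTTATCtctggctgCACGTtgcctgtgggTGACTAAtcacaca
Edn2 (chr4:120160956-120161255, plus strand): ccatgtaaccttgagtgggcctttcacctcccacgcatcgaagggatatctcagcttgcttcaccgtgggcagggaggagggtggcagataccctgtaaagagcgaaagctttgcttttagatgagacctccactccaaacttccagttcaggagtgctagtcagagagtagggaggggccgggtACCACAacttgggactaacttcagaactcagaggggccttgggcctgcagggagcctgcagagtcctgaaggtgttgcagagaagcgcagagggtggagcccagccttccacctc
The motifs, searched on both strands, were TGACTNA (AP-1), TGACG (a core of the cyclic AMP response element), ACGTG (core of the hypoxia response element), GATAA (GATA factors), TGTGGT (RUNX factors) and GGGCGG (SP1). The AP-1 and TGACG motifs begin alike but matched no common stretch here. The Edn1 window held 3 matches, all just past the start annotated by RefSeq. Whether cumulus cells use that start was not tested. The matches were GATAA at bases 9 to 13 (reverse strand), ACGTG at 22 to 26 (reverse strand) and AP-1 at 37 to 43. Such matches are common, since 25.4%, 19.6% and 13.9% of all 32851 windows hold the GATA, hypoxia and AP-1 motifs. The Ednrb window held TGACG at -203 to -199 from its start (20.8% of all windows hold it), and the Edn2 window held the RUNX motif at -65 to -60 on the reverse strand (16.8%). Matches of letters are a description and show no binding.

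Edn1 encodes endothelin 1, the main endothelin of vessel walls. Its probe set 1451924_a_at read 8.88, 9.18 and 8.06 on the log2 scale in hCG-0h samples 1, 2 and 3 and 7.56, 6.89 and 7.87 in hCG-6h samples 1, 2 and 3. Every hCG-6h sample was below every hCG-0h sample, but the gap between the groups was only 0.19, with hCG-0h sample 3 and hCG-6h sample 3 as the nearest pair. The mean dropped from 8.71 ± 0.58 to 7.44 ± 0.50 (SD, n = 3 each), a log2 change of -1.27 ± 0.35 (SE), or 2.41-fold lower with a 95% confidence interval of 1.35 to 4.30. The adjusted p was 0.0455 over genes and 0.0525 in the separate fit over all 34958 probe sets, so Edn1 was called in one fit and not in the other. With each sample left out in turn the change lay between -1.59 and -0.99, and it was called in 1 of 6 cases, without hCG-0h sample 3 (adjusted p = 0.0210), and lost without hCG-0h sample 1 or 2 or any one hCG-6h sample (adjusted p = 0.0518 to 0.128).

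Edn2, the endothelin tied to ovulation, did not differ between the groups beyond its spread. Only cumulus cells of these groups were read, so other granulosa cells and later times are not covered. Its probe set 1449161_at read 6.55, 6.60 and 6.38 at hCG-0h and 6.45, 6.50 and 6.41 at hCG-6h, so the groups overlapped. The log2 change was -0.06 ± 0.10 (SE, adjusted p = 0.766), with a 95% confidence interval of -0.31 to 0.19. In folds the interval ran from 0.809 to 1.14, so a rise of more than 1.14-fold at this probe set lies outside it. The group means, 6.51 and 6.45, lay near the array medians of 6.43 to 6.46. Detection calls were not used here, so whether this reading stands above background cannot be told. A set at background would give a narrow interval whatever the transcript did, so the interval alone does not show that Edn2 stayed level.

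Edn3 encodes endothelin 3, which acts through Ednrb in neural crest cells. None of its 4 probe sets was called, and their log2 changes went both ways, from -0.21 for 1421136_at to 0.27 for 1441924_x_at (adjusted p over probe sets = 0.265 and 0.237). The brightest, 1438696_at, read 6.72, 6.54 and 6.22 at hCG-0h and 6.22, 6.35 and 6.32 at hCG-6h, a change of -0.20 ± 0.15 (SE, adjusted p = 0.418). The groups overlapped in 3 of the 4 sets, all but 1421136_at, where the gap was 0.04. That set lay among the dimmest 1 in 3 probe sets (mean at or under 5.89), where the background correction in RMA compresses differences.

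Ednrb showed the largest change of the family. Probe set 1423594_a_at read 9.51, 9.02 and 9.31 at hCG-0h and 6.72, 6.72 and 6.69 at hCG-6h. The hCG-6h samples lay within 0.03 of each other and 2.30 below the lowest hCG-0h sample. The mean dropped from 9.28 ± 0.25 to 6.71 ± 0.02 (SD, n = 3 each), a log2 change of -2.57 ± 0.14 (SE, adjusted p = 7.80e-05), or 5.94-fold lower with a 95% confidence interval of 4.70 to 7.50. By size of change Ednrb stood at rank 102 of the 1905 genes that fell.

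The other Ednrb probe sets dropped further. At 1426314_at the values were 9.20, 9.51 and 9.36 against 6.60, 6.60 and 6.64, and at 1437347_at they were 9.24, 9.27 and 9.63 against 6.01, 5.51 and 5.63. In all 3 sets the groups were clear of each other, by 2.30 to 3.23. Fitted over all probe sets, the levels were 5.94-fold, 6.70-fold and 12.7-fold lower, so the size of the fall depended on the set while its direction and call did not. The hCG-6h mean of 1437347_at, 5.72, lay under 5.89, the limit of the dimmest 1 in 3 probe sets, so its fold is approximate. Those of 1423594_a_at and 1426314_at, 6.71 and 6.61, lay above it but near the array medians of 6.43 to 6.46. Without detection calls, whether they stand above background cannot be told, so their folds are approximate too. The 95% interval of the first set (4.66 to 7.56) and that of the third (9.41 to 17.1) did not overlap. Ednrb was called as lower under all 15 other settings tried, with log2 changes from -2.99 to -2.46.

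Ece1, the enzyme that releases active endothelin from big endothelin, fell at 2 of its 3 probe sets. The brightest, 1455741_a_at, read 11.84, 11.86 and 11.97 at hCG-0h and 11.29, 11.24 and 11.10 at hCG-6h, with a gap of 0.55 between the groups. The log2 change was -0.68 ± 0.10 (SE, adjusted p = 0.00460), or 1.60-fold lower (95% confidence interval 1.35 to 1.90). Probe set 1434177_at read 9.90, 10.26 and 9.88 against 8.91, 9.21 and 9.19, again without overlap, and was 1.88-fold lower (adjusted p = 0.00857 over probe sets). The third set, 1441423_at, spread widely within groups, at 6.44, 5.39 and 7.25 against 5.09, 6.03 and 6.06, and was not called (log2 change -0.63 ± 0.49, SE, adjusted p over probe sets = 0.448). Ece1 was called whichever of the 6 samples was dropped (adjusted p = 0.0132 to 0.0193). Against hCG-6h sample 1 alone, the only one described as 6 h, its log2 change was -0.60, with no call (adjusted p = 0.102) in a fit that takes the spread of that lone sample from the hCG-0h group.

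Ece2, a related converting enzyme active at acid pH inside cells, read in the opposite direction without passing. Its brighter set, 1423358_at, stood at 8.45, 8.78 and 8.55 at hCG-0h and at 9.63, 9.01 and 9.00 at hCG-6h. The groups did not overlap, with a gap of 0.22, and hCG-6h sample 1 was the highest. The log2 change was 0.62 ± 0.20 (SE, adjusted p = 0.0713). The dimmer set, 1424561_at, read 5.28, 5.06 and 5.02 against 5.27, 5.51 and 5.33, with overlap and a change of 0.25 ± 0.13 (SE, adjusted p over probe sets = 0.241). When the 2 sets were averaged the change of 0.44 was called (adjusted p = 0.0283). Against hCG-6h sample 1 alone, the highest of its group, the change was 1.04, and its adjusted p of 0.0478 rests on the spread of the hCG-0h group only. The current annotation lists a read-through name with Eef1akmt4 among the synonyms of Ece2, so which transcripts each set reads cannot be told from these values.

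**Figure D2:**
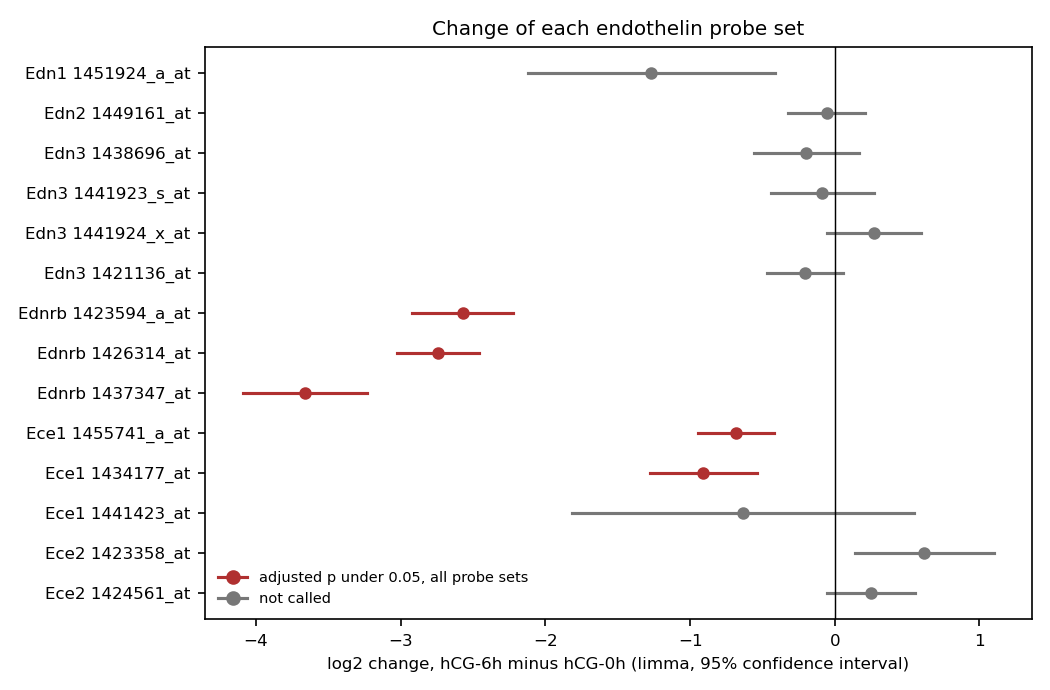
Log2 change (hCG-6h minus hCG-0h) of the 14 endothelin probe sets with limma's 95% confidence interval, red where the adjusted p over all probe sets is under 0.05. Among them 5 are red, the 3 of Ednrb and 2 of Ece1, and none is called on the positive side.

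Taken set by set, 5 of the 14 probe sets fell and 0 rose (1 was higher at an unadjusted p under 0.05), beside 18.7% called over all probe sets, 9.43% lower and 9.28% higher. Groups did not overlap in 8 of the 14 sets, against 36.3% of all probe sets. Sets of one gene share its transcripts and are not separate evidence.

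**Figure D3:**
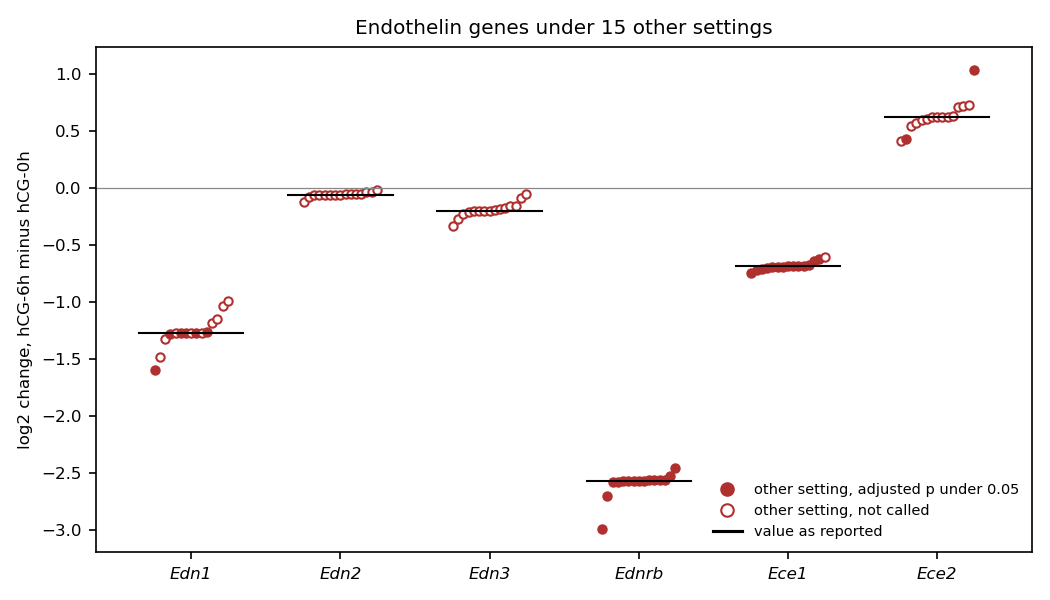
Log2 change (hCG-6h minus hCG-0h) of the 6 measured genes as reported (black line) and under 15 other settings (circles, in order of value; filled where the adjusted p is under 0.05). Ednrb is filled throughout, Ece1 in 14 of 15, Edn1 in 6 of 15 and Ece2 in 2 of 15, while Edn2 and Edn3 are filled in none.

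Genes whose 6 values moved most like those of Ednrb were found by the Euclidean distance between log2 values centred on the hCG-0h mean, over 6 samples. The nearest 5 were Sytl4, Cyp1b1, Chn2, Steap3 and Aif1l, at distances of 0.247 to 0.459. Sytl4, a binding partner of Rab proteins in granule release, read 11.03, 10.82 and 10.92 at hCG-0h and 8.25, 8.44 and 8.37 at hCG-6h, with a log2 change of -2.57, as for Ednrb. Cyp1b1, which hydroxylates oestrogens, changed by -2.57 as well, and Chn2, Steap3 and Aif1l by -2.45, -2.38 and -2.66. They were chosen for this likeness, so it is no test, and with 2 groups it mostly ranks genes by the size of their fall.

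Beside the members stand other enzymes that make or break down endothelins. Over all genes 10.8% were called higher and 10.5% lower. Of 12 listed genes of precursor cleavage and peptide breakdown, 3 rose, 1 fell and 8 did not pass. The median log2 change of this list was 0.07. Those that rose were all proprotein convertases, the proteases that cut precursors at basic residues. Furin, which cuts the endothelin precursor, read 9.67, 9.62 and 9.95 at hCG-0h and 11.28, 11.38 and 11.40 at hCG-6h, 3.05-fold higher (adjusted p = 0.000238). Pcsk5 was 6.45-fold higher, in all 5 of its probe sets, and Pcsk6 3.34-fold higher. Ctsa, a lysosomal carboxypeptidase that degrades endothelin, fell 1.40-fold at 1 of its 2 probe sets. That call was lost with the sets averaged (log2 change -0.28, adjusted p = 0.192) and in 5 of 6 cases with a sample left out, all but hCG-0h sample 2. Mme, neprilysin, which breaks down endothelins, read 5.27 to 5.62 at hCG-0h and 5.03 to 5.40 at hCG-6h and did not pass (adjusted p = 0.443). These convertases have many other substrates.

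Downstream of both receptors lie Gq proteins, phospholipase C and calcium release. In this list 3 of 22 measured genes rose and 2 fell, with a median of 0.20. These counts lie near the shares over all genes, 10.8% higher and 10.5% lower. Orai1, the calcium channel opened when stores run empty, was 4.49-fold higher, from 7.08 ± 0.31 to 9.25 ± 0.36 (SD, n = 3 each). Rgs4, which shortens Gq signals, was 2.01-fold higher and the phospholipase gene Plcb3 1.54-fold higher, the last not called when sample 1 or 3 of either group was dropped (adjusted p = 0.0818 to 0.0991). Prkce, a protein kinase C, was 2.50-fold lower at its brightest set, the only one of 4 called, and Gnaq, the Gq subunit, fell by 0.46 on the log2 scale (named after its values were seen). The called genes of this list numbered 3 in place of 5 without hCG-0h sample 1, hCG-6h sample 1 or hCG-6h sample 3.

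Genes of actomyosin contraction, the usual endpoint of endothelin signalling in muscle, were split. Of 20 measured, 5 rose, 4 fell and 11 did not pass, with a median of -0.03. Among all genes 10.8% rose and 10.5% fell. Myocd, the coactivator of smooth muscle genes, was 7.26-fold lower, from 10.60, 11.19 and 11.23 to 8.02, 8.11 and 8.31. Myl9, a myosin light chain, was 2.17-fold lower, and Mylk and Myh10 fell too (log2 changes -0.78 and -0.69, named after their values were seen). Cald1, an actin-binding regulator, was 4.77-fold higher, with hCG-0h sample 3 at 9.59 well above the 7.94 and 7.91 of samples 1 and 2. Tpm2, a tropomyosin, was 1.91-fold higher, although of its 4 sets 3 rose and 1 fell, and Tpm1, Smtn and Myh9 rose by 0.84, 0.75 and 0.70 on the log2 scale (named after their values were seen). Acta2, smooth muscle actin, read 7.84, 6.72 and 7.21 against 6.52, 6.04 and 6.76, with overlap (adjusted p = 0.119).

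Among 16 factors known to act on endothelin genes, 5 rose and 3 fell, with a median of 0.13. The shares of all genes were 10.8% higher and 10.5% lower. Pgr, the progesterone receptor and a known activator of Edn2, read 5.22, 4.29 and 4.61 at hCG-0h and 7.88, 8.36 and 9.02 at hCG-6h, 13.1-fold higher, with 2 of its 3 sets called. Hif1a, the hypoxia factor known to raise Edn2, was 1.77-fold higher in a called change of all 4 sets (adjusted p = 0.00177), whereas Epas1, its relative, was 4.04-fold lower. Pparg, known to act on Edn2 below Pgr, was 1.57-fold lower (adjusted p = 0.0138). Klf2, which holds Edn1 down in endothelium, was 2.05-fold higher (adjusted p = 0.0168, and 0.0585 without hCG-6h sample 3), and Foxo1, a forkhead factor, was 2.46-fold lower. Klf4 and Smad3 rose by 0.79 and 0.63 on the log2 scale (named after their values were seen). Without hCG-6h sample 3 the called genes of this list numbered 5 in place of 8, with 2 rising, and without hCG-0h sample 1 or hCG-6h sample 1 the rising ones were 3.

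Edn2 is one of several ovulatory genes held to be under progesterone receptor control, and most of the others listed rose. Of 11 measured, 8 rose, 1 fell (Fkbp5, log2 change -0.43, named after its values were seen) and 2 did not pass, with a median of 1.67. For all genes 10.8% rose and 10.5% fell. This list, like the others, was chosen with earlier results of these data known, so its counts are no independent test. Snap25, a protein of vesicle fusion, Cxcr4, a chemokine receptor, Adcyap1, the peptide PACAP, and Prkg2, a cyclic GMP-dependent kinase, were 43.2-fold, 38.5-fold, 23.3-fold and 12.4-fold higher. The hCG-0h means of Snap25, Cxcr4 and Adcyap1 (4.56, 6.00 and 4.40) lay under 6.08, the limit of the dimmest 1 in 3 genes, so their folds are approximate, as are those of Pgr, Rgs4, Bdkrb2 and Ramp3, also under it at hCG-0h. Prkg2 lay just above that limit at hCG-0h, at 6.10 to 6.13, and read 9.64 to 9.81 at hCG-6h. The difference between the changes of the listed genes and that of Edn2 was not tested.

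Other vasoactive peptide systems were mixed. Of 22 measured genes, 6 rose, 4 fell and 12 did not pass, with a median of 0.20. Across all genes the shares were 10.8% higher and 10.5% lower. Ramp1 and Ramp3, partners that shape the receptors of adrenomedullin and calcitonin gene-related peptide, were 6.70-fold and 5.58-fold higher, from 7.89 to 8.00 up to 10.53 to 10.81 for Ramp1. Their partner Calcrl and Ramp2 rose too, by 1.06 and 1.31 on the log2 scale, as did Ace by 0.85 (named after their values were seen). Bdkrb2, a bradykinin receptor, was 6.31-fold higher in 1 of its 2 sets. Npr2, the receptor of C-type natriuretic peptide that holds oocytes in arrest, was 4.48-fold lower, and its ligand gene Nppc changed by -1.31, beside Agtr2 at -1.71 and Nos2 at -1.48 (named after their values were seen). The means of Agtr2 in both groups, and of Calcrl and Ramp2 at hCG-0h, lay under 6.08, the limit of the dimmest 1 in 3 genes. The changes of these genes are approximate. With a sample left out 3 to 5 genes of this list were called higher in place of 6, with 3 without hCG-6h sample 3.

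**Figure D4:**
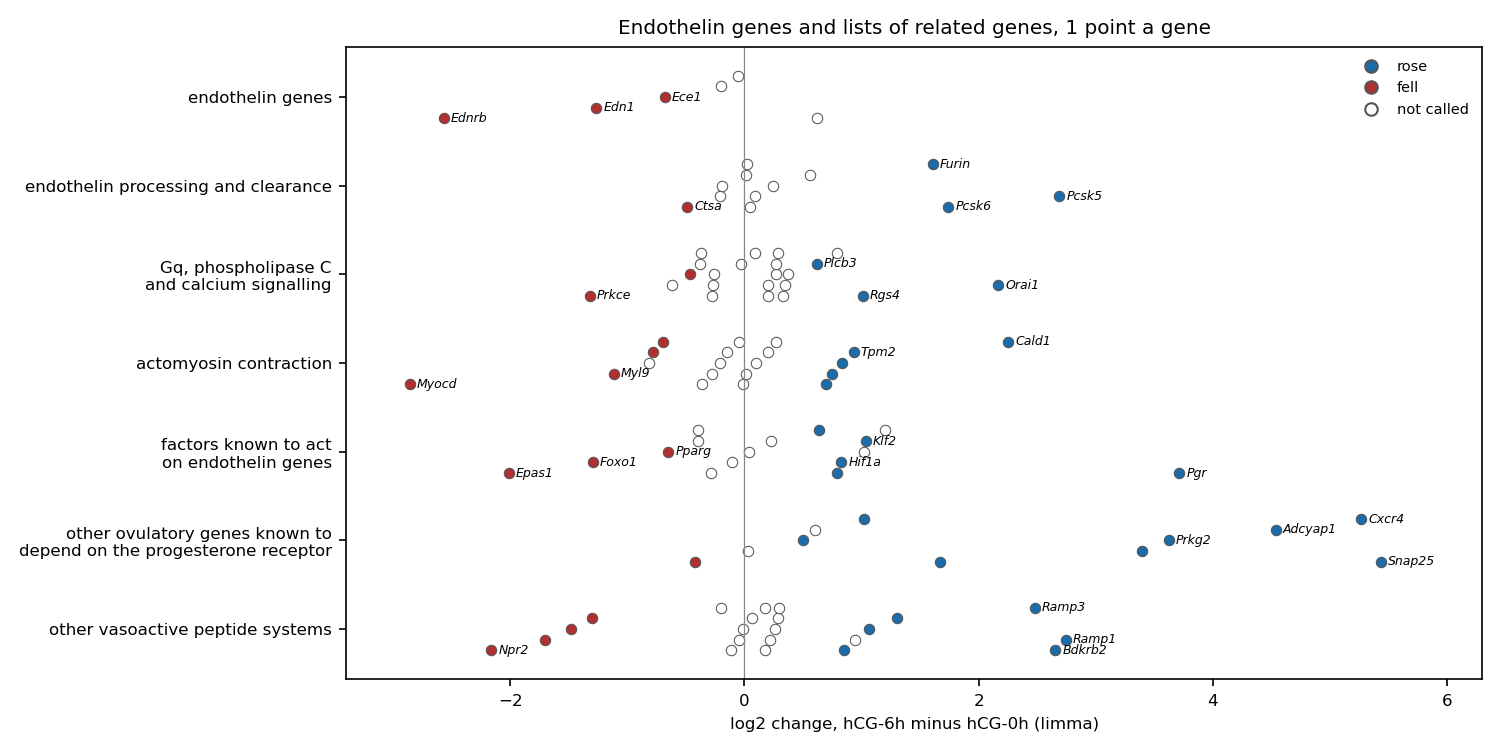
Log2 change (hCG-6h minus hCG-0h) of each measured gene, 1 point a gene, for the endothelin genes and 6 lists of related genes. Blue rose, red fell and white was not called (height within a row has no meaning). Names mark only called genes picked by the rule for naming, not every gene given in the text. The endothelin genes lie mostly left of 0, while those held to be under progesterone receptor control lie mostly to the right, up to 5.43 for Snap25.

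Bulk samples cannot tell fewer cells of a type from less RNA per cell, so markers of cells that carry endothelin genes were set beside these values. Of 10 endothelial markers 0 were called by limma (2 at an unadjusted p under 0.05), beside 21.3% of all genes. The mean log2 level of these markers was 5.41 to 5.72 at hCG-0h and 5.70 to 5.75 at hCG-6h. Egfl7, the brightest of them, read 8.50 at hCG-0h and 8.20 at hCG-6h (group means), and Esam 5.52 and 5.64. Cdh5 and Kdr were higher at hCG-6h without overlap, from 6.46 to 8.09 (adjusted p = 0.0530) and from 5.02 to 5.69 (adjusted p = 0.117, Kdr named after its values were seen), neither called. Of the 10, 8 lay among the dimmest 1 in 3 genes, and the median log2 change was 0.08. Of 8 smooth muscle markers 1, Myocd, fell (log2 change -2.86). The mean of the list went from 6.74 to 6.99 at hCG-0h to 6.27 to 6.46 at hCG-6h with Myocd included, the brightest and by far the most changed of the list. No mean without Myocd was taken, and the other 7 markers were not called. The median change was -0.13. Tagln and Acta2, the brightest after Myocd, went from 7.24 to 6.88 and from 7.26 to 6.44 (group means), neither called. Myh11 read 5.64 and then 5.91 (named after its values were seen), with hCG-6h samples at 5.41, 6.86 and 5.47. The part of either cell type in the falls of Ednrb and Edn1 was not tested. The 11 oocyte and 9 leukocyte markers gave 0 calls by limma (2 and 3 at an unadjusted p under 0.05), with oocyte means of 5.14 to 5.31 at hCG-0h and 5.32 to 5.42 at hCG-6h. Of 5 theca and interstitial markers 1 fell, Ptch1 (log2 change -0.92), while Col1a1 and Col1a2 changed by 0.08 and -0.74. The brightest oocyte markers, Dppa3, Padi6 and Gdf9, changed by 0.96, 0.10 and 0.46 (median of the 11, 0.05). The brightest leukocyte markers, Laptm5, Cd68 and Csf1r, changed by 0.05, 0.35 and 0.12 (median of the 9, 0.06). Apart from Ptch1 none of these was called.

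Several markers of the labelled cell type fell beside Ednrb. Of 9 cumulus and granulosa markers 5 fell and 0 rose, beside 10.5% and 10.8% of all genes. The median log2 change of the 9 was -1.03, and their mean went from 11.33 to 11.37 at hCG-0h to 9.89 to 10.04 at hCG-6h. Those that fell were Slc38a3, Fshr, Npr2, Nr5a2 and Fst, with log2 changes of -3.70, -3.22, -2.16, -1.57 and -0.41 (all but Fst and Npr2 named after their values were seen), and Slc38a3 ended at 5.50 to 5.70. Inha and Inhba did not pass, with means of 13.46 and 13.39 and of 13.04 and 13.16. Whether these falls and that of Ednrb have a common source was not tested. Arrays give no reading of 0, and all 6 arrays had medians of 6.43 to 6.46.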

How the data were processed

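Single-colour arrays read 3 samples of mouse cumulus cells in each group. Per the labels' protocols, RNA was amplified with a kit meant for tiny inputs, and the extraction step speaks of cumulus-oocyte complexes. The deposited values are log2 levels of 45101 probe sets, made with GCOS, Affymetrix Expression Console 1.1 and RMA, per the submitters' processing notes. RMA compresses differences of dim sets and makes array medians alike (6.43 to 6.46). The platform annotation gave 1 symbol to 34958 sets and several to 932, and did not list 9211. Of the sets with 1 symbol, 99.4% matched the reference gene table by Entrez identifier.

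limma 3.58.1 in R 4.3.3 (lmFit, eBayes) was fitted on all genes and, separately, on all sets with 1 symbol, with group alone in the model and nothing filtered out. Two-sided p-values were adjusted by Benjamini-Hochberg over each fit and called under 0.05. A log2 change is the hCG-6h mean minus the hCG-0h mean, with limma's SE.

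The members, lists and tests were chosen with earlier results of these data known. Named are all members, up to 4 called genes of each related list with the largest changes, Pgr, Hif1a, Pparg, Mme and Acta2, the 5 genes most like Ednrb and up to 3 bright markers of each cell type. The alternatives were a block for sample number, trend and robust variance, renewed quantile normalisation, median centring, leaving out the dimmest 1 in 3 genes, weights per array, averaging a gene's sets, adjustment over sets, hCG-6h sample 1 alone and each sample left out. Those for counts of the related lists were added after seeing the data. On simulated data with 18194 genes, groups of 50 genes were changed by 0.5, 1, 2 and 4 on the log2 scale. Of these, 14%, 60%, 92% and 100% were recovered, with 5 false among 138 calls. Far fewer genes changed there than the 3874 called in the data, so these rates do not give the power of this comparison. Same-numbered samples did not deviate together (correlations of -0.016 to 0.029), so the numbers were not taken as pairs. No arrays held identical values.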

Additional observations from a re-analysis of the deposited data

How the results depend on the processing

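Ednrb, Edn2 and Edn3 kept their direction and their side of the threshold under all 15 other settings. The 3874 called genes became 1577 against hCG-6h sample 1 alone, and the 5 called endothelin probe sets became 3, in a fit that takes the spread from hCG-0h only and assumes that the lone sample varies alike, so its lost calls say little about stability. With 1 sample left out, 2920 to 3211 genes, 2 to 3 endothelin genes and 5 to 6 endothelin probe sets were called. With the sample number as a replicate block, 3264 genes and 2 endothelin genes were called, and Edn1 was not (adjusted p = 0.107). The block also ended the calls of Ctsa (adjusted p = 0.0762) and Plcb3 (adjusted p = 0.0787). Edn1 also missed the threshold with array weights (adjusted p = 0.0509) and against hCG-6h sample 1 alone (adjusted p = 0.231); the cause was not tested. The Edn3 set 1441923_s_at, not called, turned from -0.09 to 0.09 against hCG-6h sample 1 alone, and with 1 sample left out it lay between -0.175 and 0.04, the latter without hCG-6h sample 3. Against hCG-6h sample 1 alone Pcsk6, Ctsa, Prkce, Plcb3, Cald1, Myl9, Tpm2, Klf2, Hif1a and Pparg also missed the threshold, in the same direction as before. Over the named genes and the member probe sets, 646 of the values under other settings kept direction and call, 35 were no longer called, 5 became called and 2 turned sign. Without detection calls, the signal over background behind the dimmest sets is unknown.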
